A study of Mus musculus with 5 samples.

Results

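GIMAP proteins (GTPases of immunity-associated proteins) are a family of GTP-binding proteins encoded side by side in 1 gene cluster, which lies on chromosome 6 in the mouse. The mouse has 8 annotated members, and all genes whose symbol is Gimap followed by a digit were taken, which gave 7 of the 11643 genes in the deposited table: Gimap1, Gimap4, Gimap5, Gimap6, Gimap7, Gimap8 and Gimap9. The eighth, Gimap3, was not analysed here. The 7 genes were chosen by name, but the family was proposed with these expression values in view, so the comparison between groups below describes the members and supports nothing further.

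The libraries came from haematopoietic stem cells (HSCs) of C57BL/6 mice, sorted from bone marrow by surface markers: no lineage antigens, c-Kit and Sca-1 present, CD150 present and CD48 absent. In 2 libraries, labelled Tle1/3/4-deficient and called the pair labelled deficient, or deficient-labelled, below, the floxed Tle1, Tle3 and Tle4 genes were the targets of Vav-Cre, a recombinase expressed throughout the blood system and not in HSCs alone. The 3 other libraries are labelled control, with no allele or Cre status given. No age is given. Whether replicates are separate animals is not stated either, so any p-value here reflects spread between libraries that may be technical. TLE proteins repress transcription and reach DNA by way of partner factors of the RUNX, TCF and HES families, and the study asked how their loss alters gene expression in HSCs.

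GIMAP proteins act mainly in lymphocytes, where several of them are needed for cell survival, and many sit on the membranes of lysosomes, the Golgi apparatus, the endoplasmic reticulum or mitochondria. GTP binding makes members assemble into dimers or longer polymers on these membranes. In mice, loss of Gimap1 depletes mature T and B cells, and loss of Gimap5 causes lymphopenia and also impairs HSCs. Gimap6 binds the autophagy protein Gabarapl2.

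Expression was given in FPKM (fragments scaled to transcript length and library size). Comparison between libraries rests on that scaling, which does not correct for a few abundant genes taking up more of a library. Column sums ranged from 599137 to 683822 FPKM, and absolute depth is unknown. Tle3, one of the deleted genes by design, went against its label, with 32.3 and 31.6 FPKM in replicates 1 and 2 of the deficient-labelled pair, against 2.48, 4.97 and 5.61 FPKM in control replicates 1, 2 and 3. Tle4 was at 0.353 and 0.203 FPKM in the pair labelled deficient, against 5.67, 0.0129 and 5.29 FPKM in the controls. Tle1 was at 2.84 and 4.37 FPKM in the pair labelled deficient, against 1.83, 0.811 and 3.33 FPKM in the controls. Exons that are not floxed may also count toward these values, which therefore do not settle whether the alleles were deleted, and every direction below rests on the labels.

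Along the chromosome the genes are ordered Gimap8, Gimap9, Gimap4, Gimap6, Gimap7, Gimap1, Gimap5 and Gimap3, with Gimap6 and Gimap3 on the minus strand and the others on the plus strand (GENCODE vM21 annotation of GRCm38, used for order and overlap because the table's build is mm9). Gimap7, Gimap1 and Gimap5 overlap the annotated protein-coding gene Gm28053 on the same strand, and Gimap1 also overlaps the antisense gene Gimap1os. Whether reads were counted by strand is not given in the sources used here, so reads of Gimap1 and Gimap1os may not have been separated. Of the 50-base stretches in protein-coding Gimap5 transcripts, 9.98% also occur in those of Gimap3, so part of the Gimap5 value may come from Gimap3. No 50-base stretch of the other 6 measured genes was shared with another GIMAP gene. Gm28053 was not part of that search.

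The 250 bases before the annotated start are shown for the 3 most abundant members, which were lower together in the deficient-labelled libraries, and for Gimap9, whose mean was not lower. They are RefSeq sequences of build GRCm38.p6, written 5′ to 3′ on the gene's strand. Capitals mark the ETS core (CAGGAA on either strand, TTCCTG when read on the other) and the RUNX core (TGTGGT on either strand, ACCACA when read on the other).
Gimap1, chr6:48738797-48739046, plus strand: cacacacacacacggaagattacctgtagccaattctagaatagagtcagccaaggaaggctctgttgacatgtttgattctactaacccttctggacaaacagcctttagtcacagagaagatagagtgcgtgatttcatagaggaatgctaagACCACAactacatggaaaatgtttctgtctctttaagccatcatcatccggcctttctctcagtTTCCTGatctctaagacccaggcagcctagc
Gimap6, chr6:48708245-48708494, minus strand: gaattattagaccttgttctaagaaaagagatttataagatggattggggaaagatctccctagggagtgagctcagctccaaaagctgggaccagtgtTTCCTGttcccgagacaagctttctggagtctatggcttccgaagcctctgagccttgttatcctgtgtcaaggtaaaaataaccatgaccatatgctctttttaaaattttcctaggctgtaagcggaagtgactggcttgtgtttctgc
Gimap5, chr6:48745947-48746196, plus strand: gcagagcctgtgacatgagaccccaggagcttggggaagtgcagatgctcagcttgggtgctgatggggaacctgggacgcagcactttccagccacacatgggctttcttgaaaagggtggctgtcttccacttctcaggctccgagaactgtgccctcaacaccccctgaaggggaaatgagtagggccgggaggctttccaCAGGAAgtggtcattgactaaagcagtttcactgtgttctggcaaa
Gimap9, chr6:48675885-48676134, plus strand: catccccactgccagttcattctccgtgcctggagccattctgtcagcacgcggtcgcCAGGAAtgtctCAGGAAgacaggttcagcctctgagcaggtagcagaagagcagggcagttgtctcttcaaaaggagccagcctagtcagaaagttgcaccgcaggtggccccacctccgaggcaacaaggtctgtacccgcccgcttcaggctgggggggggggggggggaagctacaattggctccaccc

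All 4 sequences hold the ETS core, so its presence does not separate Gimap9 from the other 3. In windows of 300 bases that also take in 50 bases after the start, this core was found in 5 of the 9 windows of the 8 annotated GIMAP genes (Gimap8 has 2 annotated starts) and in 30.6% of 32851 mouse promoter windows. The RUNX core was found in the windows of Gimap1, Gimap4 and Gimap7, 3 of 9, against 16.8% of all windows. The TCF/LEF core CTTTGA, read on both strands, occurred in the windows of Gimap4 and Gimap7, against 16.0% of all windows. Neither the GATA core AGATAA (11.2% of all windows) nor the E-box CACGTG (7.15%) occurred in a GIMAP window, and no matches overlapped each other. The Gimap9 window had 57.3% G and C, close to the 55.7% of Gimap5, and the other GIMAP windows ranged from 43.3% to 55.7%. It held 8 CpG dinucleotides, against 2 to 4 in the other GIMAP windows. The median over all mouse windows was 52.7% G and C and 7 CpG. These matches are letters in a window and are not evidence of binding.

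Of the 7 members, 6 had a lower mean in the deficient-labelled libraries and 1, Gimap9, had a higher mean. By the mean of log2(FPKM + 1) the same 6 were lower, as were 55.7% of all tested genes. In 4 of the 7 both deficient-labelled libraries lay below every control, beside 15.9% of the 10570 genes tested. The fourth of these, Gimap7, rests on listed values of 0 against a lowest control of 0.0615 FPKM and passed the filter on low values through its controls alone. No member lay above every control, beside 10.2% of tested genes. The values that this count rests on were known when the family was proposed. Summed over the 7 genes, FPKM came to 303 and 231 in deficient-labelled replicates 1 and 2, against 488, 567 and 607 in the 3 controls. The means were 267 ± 51.0 in deficient-labelled libraries and 554 ± 60.5 in controls (SD, n = 2 and 3). In bulk RNA, fewer expressing cells and less RNA per cell cannot be told apart.

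**Figure D1:**
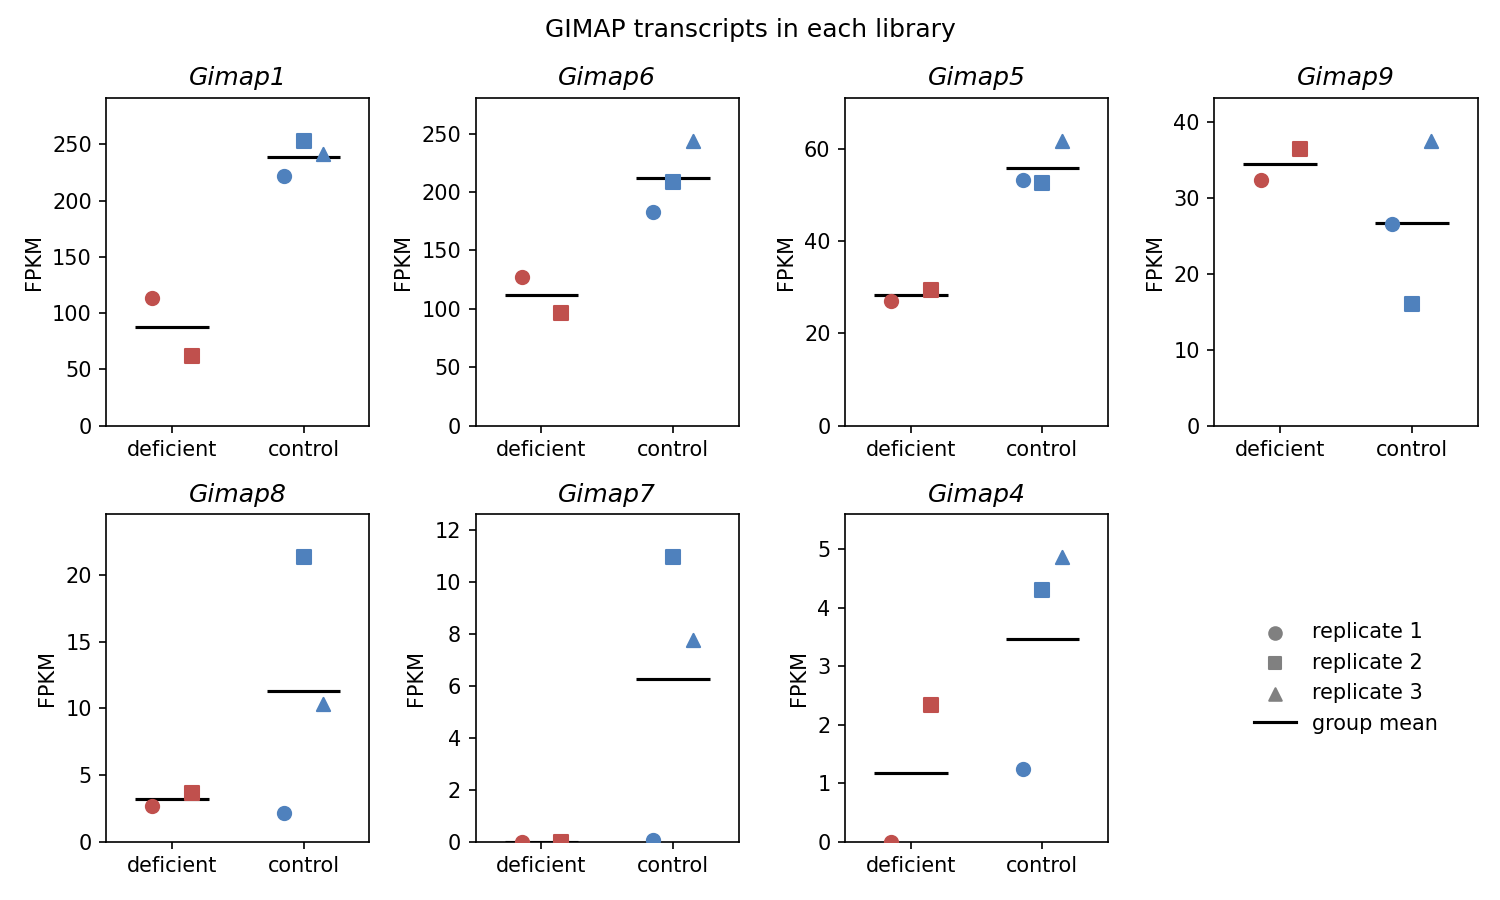
FPKM of each GIMAP gene (vertical axis, linear from 0, scaled separately for each gene) in the 2 deficient-labelled libraries on the left of each panel and the 3 controls on the right, in order of control level. Symbols are libraries and lines are group means. Gimap1, Gimap6 and Gimap5 do not overlap between groups, while Gimap9, Gimap8 and Gimap4 do.

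Gimap1, which lymphocytes need for survival, was the most abundant member in the controls. It measured 113 and 62.3 FPKM in replicates 1 and 2 of the deficient-labelled pair, against 222, 253 and 241 FPKM in control replicates 1, 2 and 3. Both deficient-labelled values lay below every control, and replicate 2 was the lower of the pair. The deficient-labelled mean was 0.368 times the control mean, and the log2 fold change, computed on log2(FPKM + 1), was -1.49 (SE 0.32). Of all tested genes, 6.61% had a lower log2 fold change than Gimap1.

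Gimap6, the autophagy-linked member, was at 127 and 96.6 FPKM in the pair labelled deficient, against 183, 209 and 244 FPKM in the controls. The groups did not overlap, and replicate 2 was again the lower deficient-labelled library. The mean was 0.528 times the control mean, and the log2 fold change was -0.92 (SE 0.27). In the deficient-labelled libraries Gimap6 was the most abundant member, ahead of Gimap1.

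Gimap5, a lysosomal membrane protein, was at 27.1 and 29.4 FPKM in the pair labelled deficient, against 53.4, 52.6 and 61.8 FPKM in the controls. The deficient-labelled pair lay close together and below all controls. The mean was 0.505 times the control mean, with a log2 fold change of -0.96 (SE 0.32). Each of Gimap1, Gimap6 and Gimap5 also stayed below every control after median-of-ratios scaling of the columns.

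Gimap9 was at 32.5 and 36.5 FPKM in the pair labelled deficient, against 26.6, 16.1 and 37.6 FPKM in the controls. The groups overlapped, since control replicate 3 was the highest library of all. The log2 fold change was 0.43 (SE 0.45), less than its own standard error. Gimap9 was the fourth most abundant member in the controls and the third in the deficient-labelled libraries.

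The remaining members were low. Gimap8, whose protein carries several GTPase domains, was at 2.70 and 3.70 FPKM in the pair labelled deficient, against 2.18, 21.3 and 10.3 FPKM in the controls. The first control was lower than both deficient-labelled libraries, and the groups overlapped (log2 fold change -1.16, SE 0.92). Gimap4, which affects T cell death in rodents, was at 0 and 2.35 FPKM in the pair labelled deficient, against 1.24, 4.30 and 4.87 FPKM in the controls. Here too control replicate 1 lay within the deficient-labelled range (log2 fold change -1.17, SE 0.92).

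Gimap7, whose human counterpart hydrolyses GTP as a dimer, was listed at 0 FPKM in both deficient-labelled libraries, against 0.0615, 10.98 and 7.77 FPKM in the controls. The first control was close to the deficient-labelled libraries and far from the other 2 controls. A listed 0 can be a failed estimate in this table, where 656 to 1438 genes per library are at 0 and control replicate 1 has the most. The fitted value of Gimap7 is therefore not read as a fold change. Gimap7, Gimap8 and Gimap4 were each lowest among the controls in replicate 1.

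The controls varied little in the abundant members and widely in the low ones. The coefficient of variation over the 3 controls was 6.57% for Gimap1, 9.14% for Gimap5 and 14.5% for Gimap6. It was 40.1% for Gimap9, 56.2% for Gimap4, 85.3% for Gimap8 and 89.5% for Gimap7. Among genes within 2-fold of the same control mean the median was 17.0% beside Gimap1, 25.6% beside Gimap5 and 17.6% beside Gimap6. It was 32.2% beside Gimap9, 77.2% beside Gimap4, 42.8% beside Gimap8 and 54.1% beside Gimap7. In level, Gimap1 and Gimap6 exceeded 96.5% and 96.0% of tested genes in the controls, Gimap5 81.9% and Gimap9 65.0%. In the controls the order was Gimap1, Gimap6, Gimap5, Gimap9, Gimap8, Gimap7 and Gimap4. Gimap1 and Gimap6 overlapped in range, as did Gimap9 and Gimap8, Gimap8 and Gimap7, and Gimap7 and Gimap4. Gimap6, Gimap5 and Gimap9 were separated from each other in every control.

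**Figure D2:**
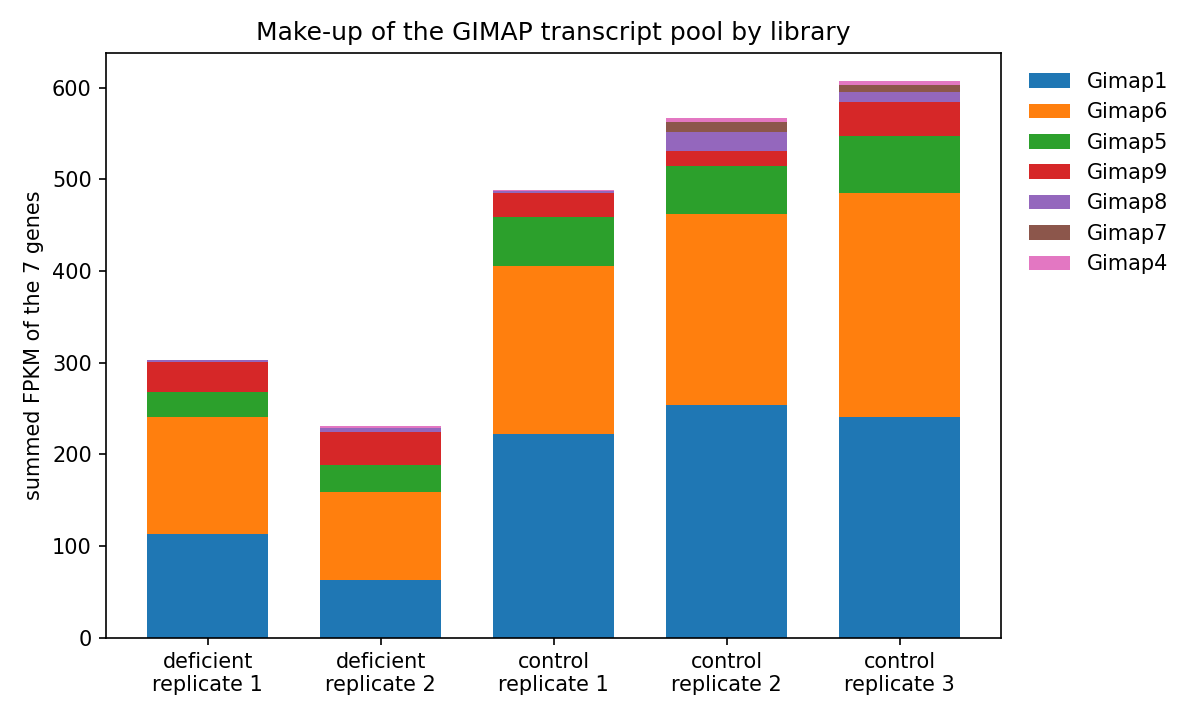
Summed FPKM of the 7 GIMAP genes (vertical axis) in each library, with coloured segments for each gene and the deficient-labelled libraries on the left. The sums were 303 and 231 FPKM in deficient-labelled libraries, below the lowest control sum of 488 FPKM, and most of each bar is Gimap1 and Gimap6.

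Within the family, Gimap1 and Gimap6 together held 79.4% and 68.8% of the summed FPKM in the pair labelled deficient, against 82.9%, 81.4% and 79.9% in the controls. The share of Gimap9 was 10.7% and 15.8% in the deficient-labelled libraries, against 5.45%, 2.84% and 6.19% in the controls. The share of Gimap5 overlapped between groups, at 8.96% and 12.7% in the deficient-labelled libraries, against 10.9%, 9.28% and 10.2% in the controls. Gimap3 is not in these sums.

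Ratios between members within a library do not depend on how the library was scaled. The ratio of Gimap9 to Gimap5 was 1.20 and 1.24 in the deficient-labelled libraries, against 0.499, 0.306 and 0.608 in the controls. Gimap9 thus exceeded Gimap5 in both deficient-labelled libraries and in none of the 3 controls. The ratio of Gimap9 to Gimap1 was 0.286 and 0.585 in the deficient-labelled libraries, against 0.120, 0.0635 and 0.156 in the controls. The ratio of Gimap1 to Gimap6 was 0.891 and 0.645 in the deficient-labelled libraries, against 1.22, 1.21 and 0.988 in the controls. None of these 3 ratios overlapped between groups. The ratio of Gimap9 to Gimap6 did not overlap either, at 0.255 and 0.378 in the deficient-labelled libraries, against 0.146, 0.0771 and 0.154 in the controls. The ratio of Gimap6 to Gimap5 did overlap, at 4.69 and 3.29 in the deficient-labelled libraries, against 3.43, 3.97 and 3.95 in the controls. So did the ratio of Gimap1 to Gimap5, at 4.18 and 2.12 in the deficient-labelled libraries, against 4.16, 4.81 and 3.90 in the controls. These ratios were chosen after the values were seen.

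**Figure D3:**
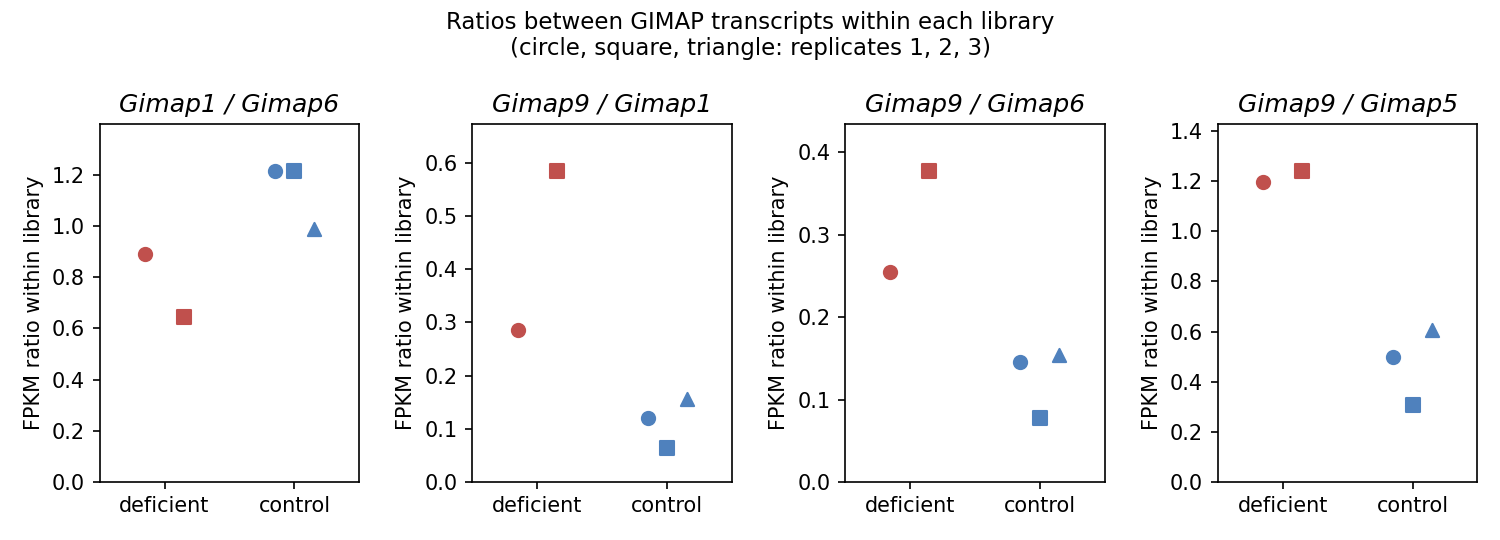
Ratio of FPKM between pairs of GIMAP genes within each library (vertical axes, linear from 0), with the 2 deficient-labelled libraries on the left of each panel and the 3 controls on the right. The ratio of Gimap9 to Gimap5 is 1.20 and 1.24 in the deficient-labelled libraries and at most 0.608 in the controls.

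In a limma fit of the 10570 genes that averaged 1 FPKM or more, 2 genes (0.0189%) passed an adjusted p of 0.05, 1 in each direction, and no GIMAP gene was among them. The adjusted p-values (Benjamini-Hochberg over all tested genes) were 0.405 for Gimap1, 0.439 for Gimap6 and 0.491 for Gimap5. They ranged from 0.640 to 0.810 for the other 4 members. Before adjustment, 3 of the 7 members had p under 0.05 with a lower mean, namely Gimap1, Gimap5 and Gimap6, beside 5.18% of all tested genes. The median log2 fold change was -1.16 over the 7 members and -0.10 over all tested genes. Of all genes, 55.7% had a negative log2 fold change and 14.4% had one of -1 or lower.

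**Figure D4:**
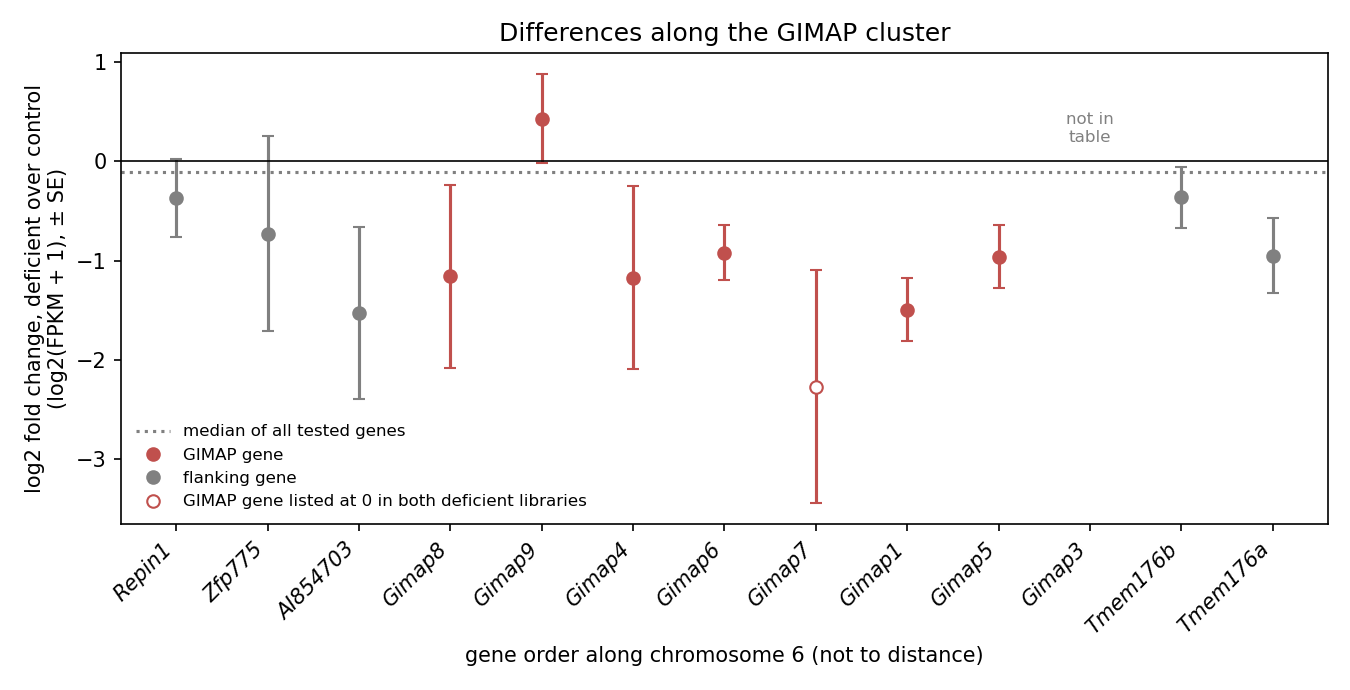
Log2 fold change on the log2(FPKM + 1) scale, deficient-labelled over control, with its standard error, for GIMAP genes (red) and flanking genes (grey) in chromosome order, with equal spacing. The open point is Gimap7, listed at 0 in both deficient-labelled libraries, whose fitted value depends on the pseudocount. Gimap9, at 0.43, lies between Gimap8 and Gimap4, at -1.16 and -1.17.

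Gimap9 is flanked by Gimap8 and Gimap4, both of which had lower means in the deficient-labelled libraries. Of the 12 nearest protein-coding genes outside the cluster, 6 on each side, 5 were in the table. All 5 had negative log2 fold changes, beside 55.7% of all tested genes. Tmem176a, a membrane protein gene of myeloid cells, was at 165 and 71.3 FPKM in the pair labelled deficient, against 207, 189 and 238 FPKM in the controls. It lay below every control, as did 15.9% of all tested genes (adjusted p = 0.558, limma). Its neighbour Tmem176b was at 384 and 214 FPKM in the pair labelled deficient, against 367, 336 and 406 FPKM in the controls, which overlapped. On the other side, the zinc finger gene Repin1 was at 32.2 and 24.8 FPKM in the pair labelled deficient, against 27.6, 35.9 and 50.01 FPKM in the controls. A further list of 16 symbols was drawn up as neighbours, but their mouse positions were not checked, so it is not read as the region. It had 9 tested members, none past the threshold, with a median of -0.95. All 9 had negative values, beside 55.7% of all tested genes. The most negative were Atg9b, Kcnh2 and Actr3b, at -2.68, -1.85 and -1.19, and none of these is among the 12 flanking genes. On this list the low genes Atg9b, Actr3b and Zfp775 were listed at 0 in deficient-labelled replicate 1.

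Proteins that GIMAPs bind, or that act in the same survival and autophagy pathways, were 13 genes, all tested and none past the threshold. Their log2 fold changes were positive for 6 and negative for 7, with a median of -0.031. In 3 of 13 both deficient-labelled libraries lay below every control, near the 15.9% of all tested genes. Gabarapl2, the Gimap6 partner, was at 130 and 129 FPKM in the pair labelled deficient, against 85.3, 142 and 111 FPKM in the controls. The chaperone Hspa8 was at 1553 and 1242 FPKM in the pair labelled deficient, against 1771, 1811 and 1791 FPKM in the controls. The autophagosome protein gene Map1lc3b was at 169 and 177 FPKM in the pair labelled deficient, against 255, 279 and 261 FPKM in the controls, with adjusted p = 0.546. Bax, a pro-apoptotic BCL2 relative, was at 224 and 132 FPKM in the pair labelled deficient, against 140, 142 and 156 FPKM in the controls.

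The GBP and IRG families are interferon-induced immune GTPases of other gene clusters. Of 20 genes listed, 16 were tested and none passed, with 7 positive and 9 negative log2 fold changes and a median of -0.33. They split between the deficient-labelled libraries: the list summed to 598 and 131 FPKM in replicates 1 and 2, against 374, 287 and 313 FPKM in the controls. Replicate 1 was above and replicate 2 below all controls, whereas the GIMAP sum was below all controls in both. Tgtp2 was at 122 and 30.8 FPKM in the pair labelled deficient, against 102, 63.7 and 75.1 FPKM in the controls.

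**Figure D5:**
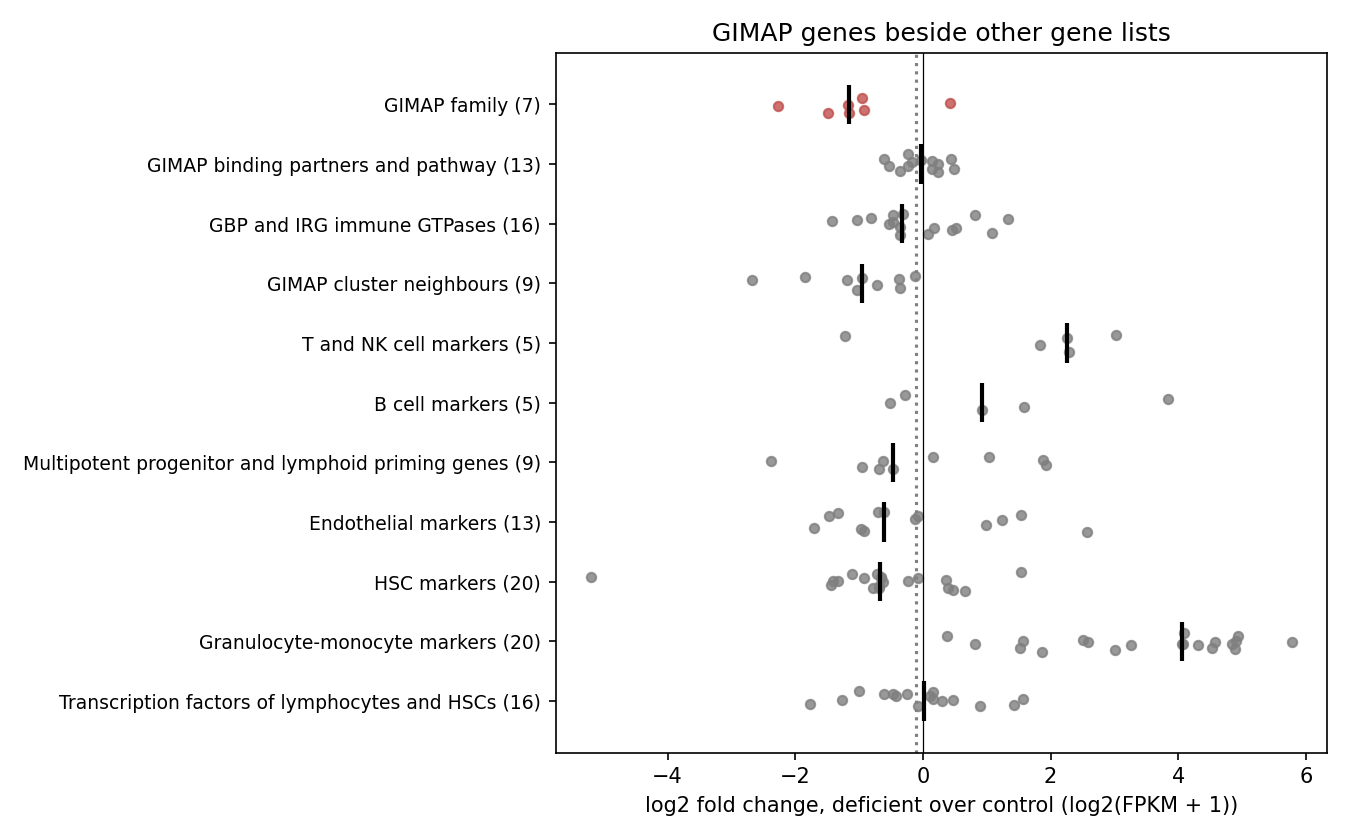
Log2 fold change on the log2(FPKM + 1) scale, deficient-labelled over control (horizontal axis), of each tested gene in the GIMAP family (red) and in 10 other gene lists (grey), with the number tested in brackets. Black bars are list medians and the dotted line is the median of all tested genes. The GIMAP median is -1.16 and the granulocyte-monocyte median is 4.07. The list labelled cluster neighbours holds genes whose mouse positions were not checked.

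Markers of lymphocytes were sparse in these libraries. Of 29 T and NK cell markers, 9 were in the table and 5 were tested, with a median log2 fold change of 2.26 and none past the threshold. Their sum was 382 and 222 FPKM in the pair labelled deficient, against 46.4, 105 and 37.8 FPKM in the controls, so it lay above every control while the GIMAP sum lay below. Most of that sum was Nkg7, a granule protein gene of NK and other cells, at 345 and 193 FPKM in the pair labelled deficient, against 41.2, 105 and 34.0 FPKM in the controls. At 0 were 3 of the 9 in deficient-labelled replicate 1 and 0 of the 9 in replicate 2, against 6, 6 and 2 of the 9 in the controls. Cd4, the helper T cell co-receptor, was at 0 and 0.0173 FPKM in the pair labelled deficient, against 5.10, 0 and 1.17 FPKM in the controls. The CD3 genes were not analysed here.

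Of 18 B cell markers, 7 were in the table and 5 were tested, with a median of 0.93 and none past the threshold. They summed to 21.2 and 163 FPKM in the pair labelled deficient, against 63.9, 52.9 and 51.9 FPKM in the controls, below all controls in replicate 1 and above them in replicate 2. Cd79b, a B cell receptor subunit, was at 16.4 and 68.2 FPKM in the pair labelled deficient, against 59.5, 42.6 and 44.9 FPKM in the controls. At 0 were 5 and 1 of the 7 in the deficient-labelled libraries, against 4, 3 and 0 in the controls. Their part in the GIMAP values was not tested.

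Genes of multipotent progenitors and lymphoid priming had 9 of 18 members tested, none past the threshold, with 4 positive and 5 negative values and a median of -0.47. Ltb, lymphotoxin beta, was at 117 and 95.5 FPKM in the pair labelled deficient, against 222, 174 and 224 FPKM in the controls. Like Gimap1, it lay below every control in both libraries. HSC markers had all 20 members tested, none past the threshold, with 15 of 20 values negative (55.7% of all tested genes) and a median of -0.67. Below every control were 8 of the 20, beside 15.9% of all tested genes, and 2 were above every control, beside 10.2%. Of the genes behind the sort, Slamf1 (CD150) lay above every control. It was at 31.8 and 31.0 FPKM in the pair labelled deficient, against 14.9, 24.0 and 21.1 FPKM in the controls. Ly6a (Sca-1) was at 155 and 14.0 FPKM in that pair, against 57.8, 96.3 and 199 FPKM in the controls. Replicate 2 of the pair was thus below every control in Ly6a. Both genes were above 0 in every library. Kit lay below every control, with 102 FPKM in each library of the pair labelled deficient, against 165, 185 and 149 FPKM in the controls (adjusted p = 0.515, limma). Cd48, whose product the gate excluded, was also above 0 in every library, with 7.19 and 23.4 FPKM in the pair labelled deficient, against 3.22, 4.63 and 13.0 FPKM in the controls. Replicate 2 of the pair was above every control in Cd48. The part of these differences in the GIMAP values was not tested.

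Endothelial markers had 13 of 16 members tested, none past the threshold, with 9 negative values and a median of -0.61. Eng, the TGF-beta co-receptor endoglin, was at 114 and 48.4 FPKM in the pair labelled deficient, against 173, 237 and 166 FPKM in the controls. Transcription factors of lymphocytes and HSCs had 16 of 20 members tested, none past the threshold, with 8 positive and 8 negative values and a median of 0.019. Their most abundant members, Lyl1, Gata2 and Fli1, had log2 fold changes of 0.15, 0.47 and 0.12.

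Granulocyte and monocyte markers had the highest list median of those examined. All 20 tested of 21 had positive log2 fold changes, with a median of 4.07, 14 were above every control (10.2% of all tested genes were) and none passed the threshold. They summed to 11967 and 70791 FPKM in deficient-labelled replicates 1 and 2, against 1030, 3483 and 2684 FPKM in the controls. That was 1.75% and 11.8% of all FPKM in the pair labelled deficient, against 0.167%, 0.542% and 0.413% in the controls. Gimap1 and Gimap6 were lowest in replicate 2, where these markers were highest, while Gimap5 and Gimap9 were slightly lower in replicate 1 than in replicate 2. Without replicate 2 the log2 fold changes were -1.07 for Gimap1, -0.72 for Gimap6 and -1.01 for Gimap5, with 1 deficient-labelled library left. Without replicate 1 they were -1.92, -1.11 and -0.90. With 1 library left in a group these values test no cause, and the part of these markers' source in the GIMAP values was not tested.

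Genes with a profile like that of the family were ranked by Pearson correlation of log2(FPKM + 1) over the 5 libraries. They were compared with the mean of the members' profiles, each standardized first, so low members weigh as much as abundant ones. The ranking covered 8347 genes averaging 5 FPKM or more. The first 5 were Tlcd2, Prkcq, Ttc5, Prps2 and Ahsa2, with r of 0.996 to 0.999. Tlcd2, the first, was at 5.42 and 5.99 FPKM in the pair labelled deficient, against 10.6, 18.9 and 27.4 FPKM in the controls. Prkcq, the second, was at 11.5 and 12.4 FPKM in that pair, against 21.7, 52.9 and 66.6 FPKM in the controls. Most like Gimap1 were Cdca7l, Chrnb1 and Hist1h4c, with r of 0.995 to 0.999. Cdca7l, a MYC-interacting nuclear protein gene, was at 72.3 and 52.7 FPKM in the pair labelled deficient, against 111, 117 and 116 FPKM in the controls. Most like Gimap6 were A430033K04Rik, Jup and Tuba1b, and most like Gimap9 were Ppp6r1, Nrd1 and Plod1. With 5 libraries that share 2 groups, 7 of the genes compared reached r of 0.99 with the mean standardized profile. The ranking is a description of these libraries.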

How the data were processed

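RNA-seq libraries of sorted HSCs, 2 labelled Tle1/3/4-deficient and 3 control, were grouped by sample title. The deposited table holds 1 FPKM value per gene symbol and library, computed by the authors. The submitters' processing notes list mm9, TopHat and edgeR, without versions or roles. No source used here gives the annotation, filters or strandedness. Depth is unknown, so no counting intervals are given.

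The 10570 genes averaging 1 FPKM or more entered a two-sided limma test (version 3.58.1, R 4.3.3) of group on log2(FPKM + 1), with a mean-variance trend, Benjamini-Hochberg adjustment over all of them and a threshold of 0.05. This scale understates changes of low genes. The fit was tested on simulated data. All 7 GIMAP genes passed the filter. Members and lists were chosen with earlier results of these data known. Named are all members, the Tle genes and up to 3 of the most abundant tested genes per list (fewer are given for most lists). Also named are the genes most like the members' mean standardized profile, or like Gimap1, Gimap6 and Gimap9 in profile. Cd4, Gabarapl2, the ratios and the flanking genes were described after their values were seen. Kit, Slamf1, Ly6a and Cd48, as genes of the sort, and Atg9b, Kcnh2, Actr3b and Zfp775 were also named outside that rule. Gene order, overlaps and 50-base stretches came from GENCODE vM21 and promoters from RefSeq (GRCm38.p6, 300-base windows), matched by symbol for all 7 members. Python 3.11.15 with pandas 2.3.3 and matplotlib 3.10.9 made the look-ups and plots. Alternatives covered the pseudocount, filter, scaling, eBayes trend, replicate block and leaving out each library.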

Additional observations from a re-analysis of the deposited data

How the results depend on the processing

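All 7 members kept the direction of their log2 fold change under each of 12 alternatives (84 of 84 values), and no member passed the threshold in any (limma, lowest adjusted p = 0.223, for Gimap1 without deficient-labelled replicate 1; 1 to 5 members at an unadjusted p under 0.05). Much of this was fixed in advance, since every alternative reuses the same libraries. In Gimap1, Gimap5, Gimap6 and Gimap7 both deficient-labelled libraries lay below every control. Leaving out a library or changing the pseudocount could therefore not reverse them. The filter and eBayes trend settings change no log2 fold change of a member. Gimap1 ranged from -1.92 to -1.07, Gimap6 from -1.11 to -0.72 and Gimap5 from -1.01 to -0.83. Leaving out 1 library moved these members by over 1.5 times: Gimap4 was -0.30 with deficient-labelled replicate 1 left out and -2.04 with replicate 2 left out, Gimap8 was -0.52 without control replicate 2 and -1.93 without control replicate 1, and Gimap9 was 0.12 without control replicate 2 and 0.70 without control replicate 3. The fitted value of Gimap7, which is not read as a fold change, was -4.59 with a pseudocount of 0.1. It ranged from -3.36 to -1.61 when each library was left out. The mean log2 fold change of the 7 members was -1.08, between -1.64 (pseudocount 0.1) and -0.89 (replicate block), and -0.82 over the 5 members above 0 in every library, an alternative chosen after seeing the data.

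Over the whole table, the 2 calls became 0 with a pseudocount of 0.1 or 0.5 or without a filter, with 864, 883 and 1004 genes at an unadjusted p under 0.05. They became 4 with median-of-ratios scaling and 1 with eBayes without trend. Leaving out each library gave 0 to 5 calls. With the replicate block there were 22 calls and 1 residual degree of freedom. Same-numbered libraries deviated from their group means with r of 0.035 and 0.0069 across genes. The deviations of the 2 deficient-labelled libraries mirror each other, so these r cannot decide whether the numbers pair libraries. The cause of the shifts in calls was not tested. With 2 and 3 libraries of unknown depth, a listed 0 of Gimap4 or Gimap7 cannot be told from a failed estimate.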
